A study of Mus musculus with 9 samples.

Results

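The enzymes that make disulfide bonds in the endoplasmic reticulum (ER) were examined at the RNA level in cultured mouse retina through 10 genes: the protein disulfide isomerases (PDIs) Pdia3, Pdia4, Pdia5, Pdia6, P4hb, Txndc5 and Txndc11, the oxidase Ero1b, and the related ER proteins Erp44 and Erp29. These genes were chosen by name from the 55487 genes of the deposited table, with earlier results of these data known. All 10 were found, and all 10 were among the 21049 genes with enough counts to be tested. Neural retinas, freed of cornea, iris, sclera and retinal pigment epithelium (RPE), came from wild-type mice of the strain C57BL/6J on postnatal day 28 and were kept as explants for 48 h in Neurobasal-A medium with 5 mM glucose, B27 and N2. The control group held 5 libraries. The 2-DG group held 4 libraries of explants that also received 2-deoxy-D-glucose (2-DG) at 20 mM, a glucose analog that cells take up and phosphorylate but cannot carry through glycolysis. After a rinse, all explants spent 1 h in Krebs' Ringer medium. The labels call the libraries biological replicates without saying how many animals a library holds. The study's question was how gene expression in the mature retina responds when glycolysis is inhibited. Means are given ± SD over the 5 control and the 4 2-DG libraries.

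Secretory and membrane proteins fold in the ER, where cysteines are joined into disulfide bonds. PDIs form, break and rearrange these bonds with active sites of the thioredoxin type, and the oxidases of the Ero1 family take electrons from them and pass these to oxygen. Photoreceptors carry a heavy load of such work, since they renew the membrane proteins of their outer segments throughout life. When unfolded proteins build up in the ER, the sensors of the unfolded protein response (UPR) switch on genes for chaperones and folding enzymes, in part through short promoter motifs.

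Libraries held between 11317734 and 51802249 estimated counts. Values are given as CPM, the counts of a gene brought to a common library total by TMM scaling. A count of 3 corresponds to between 0.0579 and 0.265 CPM, and the 10 genes had at least 207 counts in every library. Libraries were correlated pairwise over the log2 CPM of all genes, and genes are not independent replicates. The median r of a library with the others was lowest in control replicate 5 (0.889), control replicate 2 (0.891) and 2-DG replicate 4 (0.908). Mitochondrial genes took 3.40% to 13.6% of the counts. Gnat1, the transducin subunit of rods, was present in every library (994 to 8792 CPM), whereas the summed RPE markers reached 149 CPM in 2-DG replicate 3 and lay between 1.53 and 24.1 CPM in the others. In such bulk tissue, fewer cells of a type and less RNA per cell cannot be told apart.

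Promoters were searched for the motifs of the UPR. RefSeq promoters on GRCm38.p6, from 250 bases before to 50 bases after a transcript start, were found for 9 of the 10 genes (13 promoters in all), without Erp29. The ER stress element, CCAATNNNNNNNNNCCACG, was searched on both strands, as were the other motifs. It was present in Pdia6 and Ero1b, and in 39 of the 32851 promoters of the whole table (0.119%). The shorter UPR element core TGACGTGG was present in Txndc11 and in 1 promoter of Txndc5, and in 222 promoters of the table (0.676%). The amino acid response core TGATGNAA was present in another Txndc5 promoter and in 1304 of the table (3.97%). The ER stress element II, ATTGG and CCACG with 1 base between them, was present in none of the 13 and in 12 of the table (0.0365%). The elements and the UPR core share the letters CCACG or their complement, and no promoter of the 13 held more than 1 match. Pdia3, Pdia4, P4hb, Pdia5 and Erp44 held none of these exact letters in this window. Among ER chaperone genes with a promoter, 5 of 16 held the ER stress element, namely Hspa5, Hsp90b1, Calr, Canx and Dnajc3. Shown here are the promoters of Pdia4 (chr6:47813463-47813762, minus strand), the gene of the 10 with the largest fold change between the groups, of Pdia6 (chr12:17266339-17266638, plus strand) and Ero1b (chr13:12565633-12565932, plus strand), which share the ER stress element while differing in expression, and of Txndc11 (chr16:11134483-11134782, minus strand). Capitals mark the fixed letters of a motif. In Ero1b the element lies on the opposite strand and so reads from CGTGG to ATTGG.
Pdia4: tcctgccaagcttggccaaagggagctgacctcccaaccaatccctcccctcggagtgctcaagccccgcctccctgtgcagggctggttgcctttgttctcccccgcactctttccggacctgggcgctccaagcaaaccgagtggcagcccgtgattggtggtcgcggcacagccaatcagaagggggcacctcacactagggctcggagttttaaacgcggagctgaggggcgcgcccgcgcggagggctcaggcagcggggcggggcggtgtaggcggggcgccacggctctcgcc
Pdia6: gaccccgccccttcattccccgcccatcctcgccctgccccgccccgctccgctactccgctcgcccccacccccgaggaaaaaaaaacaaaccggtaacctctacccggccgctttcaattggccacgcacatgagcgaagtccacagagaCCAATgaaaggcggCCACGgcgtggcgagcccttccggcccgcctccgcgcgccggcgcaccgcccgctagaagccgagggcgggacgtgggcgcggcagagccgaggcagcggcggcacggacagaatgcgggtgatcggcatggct
Ero1b: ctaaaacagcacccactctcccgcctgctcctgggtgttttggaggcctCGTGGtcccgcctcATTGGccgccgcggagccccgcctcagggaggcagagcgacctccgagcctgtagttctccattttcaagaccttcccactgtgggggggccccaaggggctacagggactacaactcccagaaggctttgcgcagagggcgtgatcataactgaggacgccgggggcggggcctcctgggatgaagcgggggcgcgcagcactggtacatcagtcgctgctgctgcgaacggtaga
Txndc11: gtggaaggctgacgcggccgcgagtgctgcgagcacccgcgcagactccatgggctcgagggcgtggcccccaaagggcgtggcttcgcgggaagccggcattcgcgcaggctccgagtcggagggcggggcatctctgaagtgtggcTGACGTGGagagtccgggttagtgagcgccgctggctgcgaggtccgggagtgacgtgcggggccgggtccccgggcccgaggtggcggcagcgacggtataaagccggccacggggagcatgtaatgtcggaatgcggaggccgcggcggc
The element lay 98 to 80 bases before the start in Pdia6 and 201 to 183 bases before it in Ero1b, and the core of Txndc11 lay 102 to 95 bases before the start. A match describes these letters and not the binding of a factor.

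Summed over the 10 genes, expression was higher in every 2-DG library than in any control library. The sum was 865 CPM ± 42.1 (SD, n = 5) in control explants, from 822 to 922 CPM. In 2-DG explants it was 1566 CPM ± 155 (SD, n = 4), from 1358 to 1732 CPM, 1.81 times the control mean. Without Pdia5, the gene that varied most between libraries, the sums were 777 ± 66 CPM and 1502 ± 157 CPM. Most of the sum came from Pdia3, P4hb and Pdia6, while the share of Pdia4 in it was 5.28% ± 0.651 (SD) in control and 9.45% ± 2.03 (SD) in 2-DG explants, without overlap.

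In edgeR's quasi-likelihood test, 0 of the 10 genes had an adjusted p-value under 0.05 over all genes, and 0 of all 21049 genes did (0%). At an unadjusted p under 0.05, 5 of the 10 were higher in 2-DG explants, namely Pdia4, Pdia6, Pdia3, P4hb and Txndc5, and none was lower. Of all genes tested, 2.42% were higher and 4.83% lower at that level. These were 509 higher and 1017 lower genes, and the split moved with the scaling, to 293 and 1376 with library size only and to 321 and 1278 with upper-quartile scaling, where 4 of the 10, all of the 5 but Txndc5, were higher at that level. The groups did not overlap in the same 5 genes, all higher, against 1.52% of all genes tested, and in none of the 10 in the lower direction, against 1.41%. This split too moved with the scaling, from 320 higher and 297 lower genes to 181 and 428 with library size only, where 4 of the 10 did not overlap, and to 193 and 378 with upper-quartile scaling, where 5 did not. The mean was higher in 2-DG explants for 9 of the 10 genes, with a median log2 fold change of 0.43 against -0.01 over all genes. The call at the adjusted threshold depended on the test. DESeq2 called 4 of the 10 as higher, Pdia3, Pdia4, Pdia6 and P4hb, where it called 0.38% of all genes as higher (80 genes, with 204 lower). Limma-voom with sample quality weights called these 4 and Erp29 as higher, where it called 1.54% of all genes as higher (324 genes, with 898 lower).

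**Figure D1:**
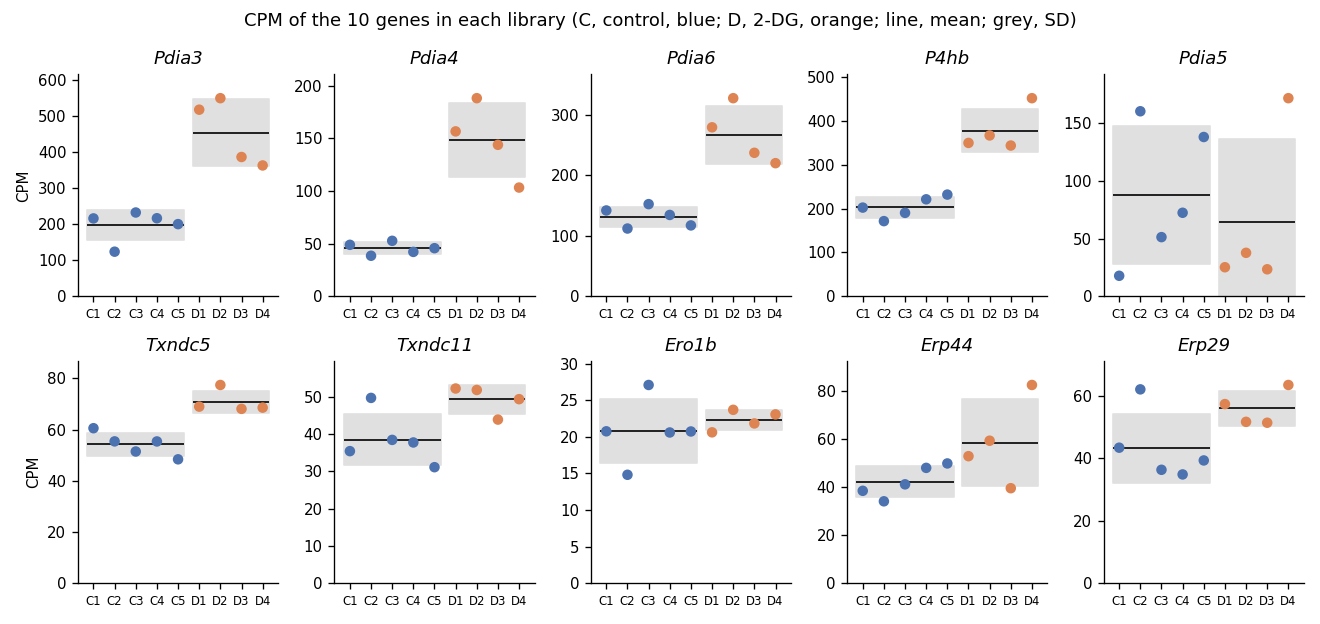
CPM of each of the 10 genes (vertical axes, from 0) in the 5 control (C, blue) and 4 2-DG (D, orange) libraries, with lines at the group means and grey bands of 1 SD, cut off at 0. In Pdia3, Pdia4, Pdia6, P4hb and Txndc5 every orange point lies above every blue point, while Pdia5 spreads from 17.8 to 172 CPM.

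Pdia4 (ENSMUSG00000025823, chromosome 6, 47796141 to 47813430, minus strand, GRCm38) encodes ERp72, an isomerase of the ER lumen that works beside the chaperones BiP and GRP94. It was measured at 48.9, 38.5, 52.7, 42.2 and 45.7 CPM in control replicates 1 to 5 and at 157, 188, 144 and 103 CPM in 2-DG replicates 1 to 4. The groups did not overlap, and the lowest 2-DG library, replicate 4, stood at 1.96 times the highest control library. Its log2 fold change of 1.70 ± 0.21 (SE; edgeR adjusted p = 0.181) is a 3.24-fold higher level with a 95% interval from 2.34 to 4.50. Of all genes tested, Pdia4 had the smallest p-value in this test. With single libraries left out the log2 fold change lay between 1.56 and 1.84. The edgeR adjusted p was 0.0386 when control replicate 2 was left out, where 0.00485% of all genes were called as higher. It was 0.0441 when 2-DG replicate 4 was left out, where 0.00946% were, and 0.944 when 2-DG replicate 2 was.

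Pdia3 (ENSMUSG00000027248, chromosome 2, 121413775 to 121438687, plus strand) encodes ERp57, which acts on glycoproteins held by the lectin chaperones calreticulin and calnexin. Its values were 216, 124, 232, 216 and 199.8 CPM in control and 517, 548, 386 and 362 CPM in 2-DG libraries. Control replicate 2 was low within its group, and every 2-DG library stood at 1.56 times the highest control or above. For Pdia3 the log2 fold change was 1.20 ± 0.25 (SE; edgeR adjusted p = 0.494).

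Pdia6 (ENSMUSG00000020571, chromosome 12, 17266545 to 17284770, plus strand), whose promoter holds the ER stress element printed above, encodes P5, an isomerase that binds BiP. It was measured at 142, 112, 152, 135 and 117 CPM in control and at 279, 328, 237 and 220.2 CPM in 2-DG libraries. The groups did not overlap, and 2-DG replicate 2 was the highest library for Pdia6, as it was for Pdia3 and Pdia4. For Pdia6 the fold change on the log2 scale was 1.02 ± 0.20 (SE; edgeR adjusted p = 0.494).

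P4hb (ENSMUSG00000025130, chromosome 11, 120560298 to 120573253, minus strand) encodes the founding member of the family, which is also a subunit of collagen prolyl 4-hydroxylase and of the microsomal triglyceride transfer protein. Its values were 202, 171, 190.1, 221 and 232 CPM in control and 349, 366, 343 and 451 CPM in 2-DG libraries. The groups did not overlap, and 2-DG replicate 4, the lowest 2-DG library for Pdia3, Pdia4 and Pdia6, was the highest for P4hb. In P4hb the log2 fold change was 0.89 ± 0.20 (SE; edgeR adjusted p = 0.494).

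Txndc5 (ENSMUSG00000038991, chromosome 13, 38500079 to 38528824, minus strand) encodes ERp46, an isomerase with several domains of the thioredoxin type. It was measured at 60.6, 55.4, 51.5, 55.4 and 48.4 CPM in control and at 69.0, 77.5, 68.1 and 68.6 CPM in 2-DG libraries. The groups were narrow and did not overlap, with a smaller distance between them than in the genes above. For Txndc5 the fold change on the log2 scale was 0.38 ± 0.16 (SE; edgeR adjusted p = 0.669), and it missed an unadjusted p of 0.05 in 10 of the 20 alternative fits with a p-value. Exons of 2 genes on the opposite strand overlap those of Txndc5, Gm31834 over 6.92% and Bmp6 over 4.99% of its exon bases. Whether the counting used the strand is not given in the sources used here.

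Txndc11 (ENSMUSG00000022498, chromosome 16, 11074911 to 11134650, minus strand) encodes a membrane-anchored thioredoxin-like protein of the ER. Its values were 35.5, 49.8, 38.5, 37.8 and 31.1 CPM in control and 52.3, 51.9, 43.9 and 49.4 CPM in 2-DG libraries. Control replicate 2 lay among the 2-DG libraries, and without it the groups would not overlap. The difference on the log2 scale was 0.36 ± 0.19 (SE; edgeR adjusted p = 0.733), and 0.47 ± 0.16 (SE; edgeR adjusted p = 0.339) without control replicate 2.

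Pdia5 (ENSMUSG00000022844, chromosome 16, 35397312 to 35490873, minus strand) encodes PDIR, another isomerase of the family, and was the only one of the 10 with a lower mean in 2-DG explants. Its values were 17.8, 160.4, 51.3, 72.4 and 138 CPM in control and 25.2, 37.7, 23.4 and 172 CPM in 2-DG libraries. The groups overlapped, and 2-DG replicate 4 was the highest of all 9 libraries. The spread was 67.9% of the mean in control and 111% in 2-DG explants, against 6.12% to 30.7% in the other 9 genes. For Pdia5 the log2 fold change was -0.45 ± 0.72 (SE; edgeR adjusted p = 0.90). It was -1.61 ± 0.62 (SE; edgeR adjusted p = 0.338) without 2-DG replicate 4 and -0.12 ± 0.77 (SE; edgeR adjusted p = 0.991) without control replicate 2.

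The 3 libraries with the most Pdia5, 2-DG replicate 4, control replicate 2 and control replicate 5, were also those with the most rod RNA and the largest mitochondrial share. Summed over 6 rod markers, they held 7592, 17229 and 6494 CPM, against 1782 to 3871 CPM in the other 6 libraries. Their mitochondrial shares were 13.6%, 10.7% and 9.97%, against 3.40% to 6.68%. Summed bipolar cell markers were lowest in the same libraries, at 313, 482 and 160 CPM, against 925 to 2885 CPM in the others. They are also the libraries with the lowest correlation with the others. The part of cell composition and of library quality in the level of Pdia5 was not tested.

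**Figure D2:**
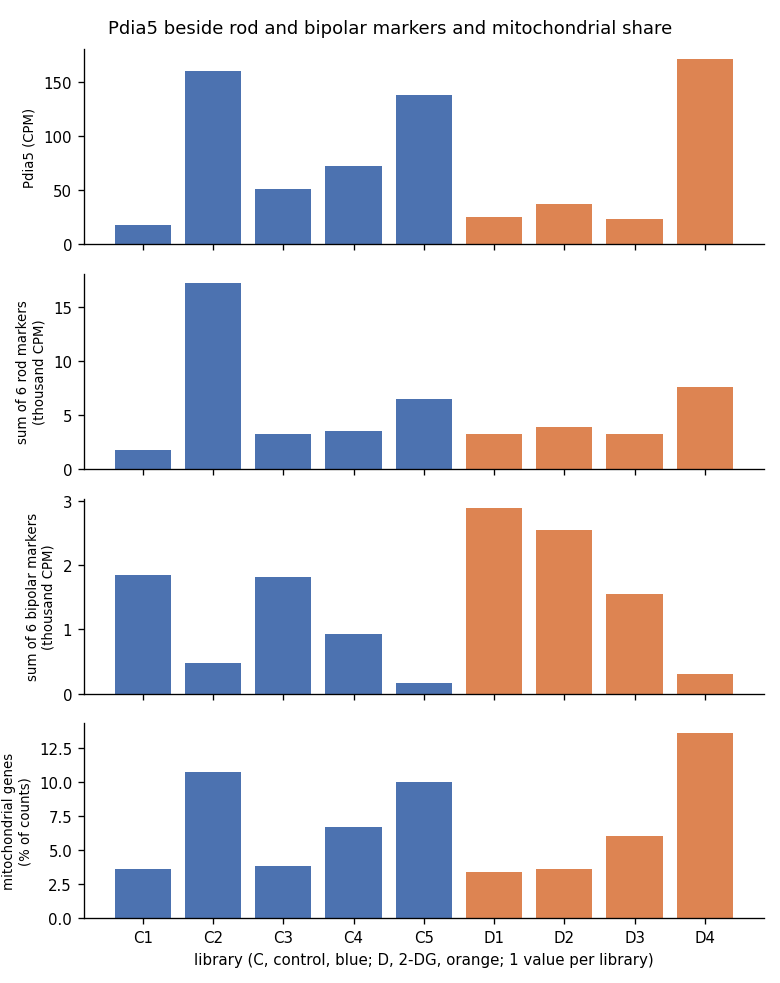
CPM of Pdia5 (top), summed CPM of 6 rod marker genes and of 6 bipolar cell marker genes in units of 1000 (middle panels) and percent of counts from mitochondrial genes (bottom) in each control (C, blue) and 2-DG (D, orange) library, 1 value per bar, all axes from 0. The 3 libraries with the most Pdia5, C2, C5 and D4, also have the most rod markers, the fewest bipolar markers and the largest mitochondrial share.

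Ero1b (ENSMUSG00000057069, chromosome 13, 12565874 to 12611396, plus strand) encodes an oxidase that recharges PDIs, and its promoter holds the ER stress element as that of Pdia6 does. It was measured at 20.8, 14.8, 27.1, 20.6 and 20.7 CPM in control and at 20.6, 23.7, 21.8 and 23.1 CPM in 2-DG libraries. All 2-DG libraries lay within the control range. Between the groups the log2 fold change was 0.10 ± 0.22 (SE; edgeR adjusted p = 0.927), with a 95% interval of -0.38 to 0.58. The sign of this value turned without control replicate 2. Its paralog Ero1a was measured at 99 ± 18.4 CPM (SD) in control and 105 ± 6.42 CPM (SD) in 2-DG explants (log2 fold change 0.09 ± 0.19 SE; edgeR adjusted p = 0.928).

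Erp44 (ENSMUSG00000028343, chromosome 4, 48193323 to 48279558, minus strand) encodes a protein that binds Ero1 oxidases and unfinished secretory proteins and returns them to the ER. Its values were 38.5, 34.1, 41.2, 48.0 and 49.9 CPM in control and 52.9, 59.3, 39.5 and 82.5 CPM in 2-DG libraries. Of the 2-DG libraries, 3 lay above all controls and replicate 3 lay within them. Erp44 had a log2 fold change of 0.47 ± 0.24 (SE; edgeR adjusted p = 0.714) and 0.26 ± 0.22 (SE; edgeR adjusted p = 0.633) without 2-DG replicate 4.

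Erp29 (ENSMUSG00000029616, chromosome 5, 121428590 to 121452506, minus strand) encodes a PDI-like chaperone that lacks the active-site cysteine pair. It was measured at 43.3, 62.0, 36.3, 34.8 and 39.3 CPM in control and at 57.3, 51.6, 51.3 and 63.4 CPM in 2-DG libraries. Only control replicate 2 lay among the 2-DG libraries. Erp29 had a log2 fold change of 0.37 ± 0.21 (SE; edgeR adjusted p = 0.751), and 0.54 ± 0.16 (SE; edgeR adjusted p = 0.257) without control replicate 2. Exons of Naa25 on the opposite strand overlap 24.4% of the exon bases of Erp29, and their part in the values was not tested.

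**Figure D3:**
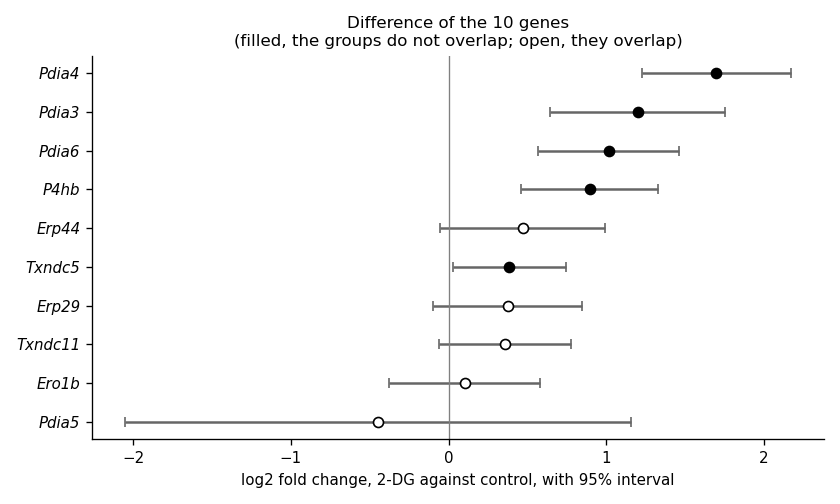
Log2 fold change of 2-DG against control (horizontal axis) for each of the 10 genes with its 95% interval from edgeR. Filled points mark genes whose groups do not overlap (Pdia4, Pdia3, Pdia6, P4hb and Txndc5), and the interval of Pdia5, from -2.05 to 1.16, is the widest.

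Leaving out control replicate 2 and 2-DG replicate 4 together, a choice made after seeing the data, edgeR called 3 of the 10 genes, Pdia4, Pdia3 and Pdia6, at an adjusted p of 0.0293, 0.0419 and 0.0473. In that fit 0.075% of all genes were called as higher.

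Levels can be compared between genes only per length of transcript. In TPM, transcript counts divided by annotated length and brought to a common total, 9 of the 10 genes could be ordered. Pdia6 could not, since the transcripts matched to the annotation held 10.1% of its counts. In control explants Pdia3 (163 ± 54.8 TPM, SD), Pdia5 (148 ± 82 TPM) and P4hb (148 ± 29.3 TPM) were highest, and their ranges overlapped. The value of Pdia5 includes Pdia5-204, a processed transcript of 679 bases without a coding sequence (mean 35.4 CPM in control). The protein-coding Pdia5-201 has 1809 bases (mean 51.3 CPM in control), so per length the noncoding transcript weighs more in this TPM. Below Pdia3, Pdia5 and P4hb in mean came Erp29 at 78 ± 15.6 TPM, whose range lay under that of P4hb and above that of Erp44. The range of Erp29 (61.6 to 93.1 TPM) overlapped those of Pdia3 (from 82.1 TPM) and Pdia5 (from 39.3 TPM). Erp44 (42.5 ± 9.45 TPM), Txndc5 (42 ± 9.48 TPM), Pdia4 (40 ± 11.3 TPM) and Txndc11 (28.8 ± 5.48 TPM) followed without a gap between neighbours. Ero1b was lowest at 12 ± 4.22 TPM (all n = 5), under the range of Txndc11. In 2-DG explants Pdia3 (368 ± 129 TPM), P4hb (267 ± 39.4 TPM) and Pdia4 (131 ± 51.5 TPM, all SD, n = 4) had the highest means. On this scale the groups of Pdia4 and P4hb again did not overlap, whereas those of Pdia3 did, with 82.1 to 220.0 TPM in control and 188 to 467 TPM in 2-DG libraries. The groups of Txndc5 overlapped as well, with 31.5 to 55.0 TPM in control and 33.6 to 64.2 TPM in 2-DG libraries.

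Ratios of the counts of 2 genes within a library, which need no scaling between libraries, were compared for all 45 pairs of the 10, and 0 pairs passed the adjusted threshold. In 13 of the 45 pairs the groups did not overlap, against 2.91% of all pairs of tested genes; the 45 pairs share the same 10 genes and are not independent. In these pairs Pdia4, Pdia3, Pdia6 or P4hb was the gene with the higher ratio in 2-DG explants and, other than in Pdia4 over Pdia6, its partner was Ero1b, Txndc11, Txndc5, Erp29 or Erp44. The log2 ratio of Pdia4 to Ero1b went from 1.15 ± 0.165 (SD, n = 5) in control to 2.70 ± 0.375 (SD) in 2-DG explants, a difference of 1.55. The corresponding differences were 1.30 for Pdia4 over Txndc11, 1.29 over Txndc5, 1.27 over Erp29 and 0.67 over Pdia6. For the pair that shares the ER stress element, the log2 ratio of Pdia6 to Ero1b was 2.68 ± 0.183 (SD) in control and 3.56 ± 0.258 (SD) in 2-DG explants, a difference of 0.88. Each of the 13 pairs had an exact two-sided permutation p of 0.0159, the smallest that the test can give when the smaller tail is doubled, and an adjusted p of 0.0549 over the 45 pairs. Since these pairs had no smaller p to reach, 0 pairs passing does not show that the ratios were alike. The count depends on how the two-sided p is formed. Counted from absolute differences, an alternative added after the result was seen, the smallest p is 0.00794 and 12 of the 45 pairs passed with an adjusted p of 0.0298, all of the 13 but Pdia6 over Txndc5.

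**Figure D4:**
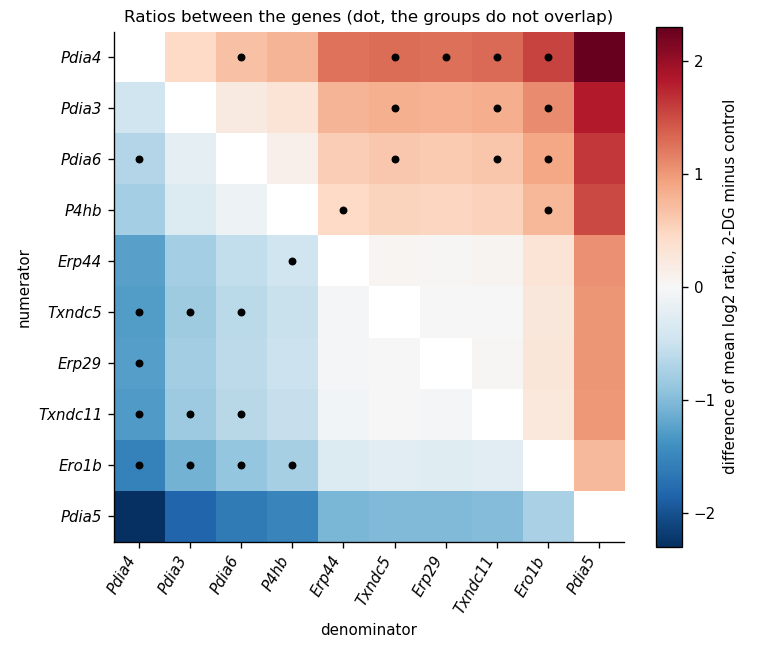
Difference between 2-DG and control in the mean log2 ratio of each pair of the 10 genes, row gene over column gene (red, higher in 2-DG; blue, lower). Dots mark pairs whose groups do not overlap, and the row of Pdia4 has 5 of them.

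How far a gene was carried by 1 transcript differed between the genes. The most abundant transcript held 99.9% of the transcript counts of Pdia4, 99.6% of P4hb and 96.9% of Pdia3, and 56.4% to 93.6% in Erp44, Ero1b, Erp29, Pdia5, Txndc11 and Txndc5. Of the 10 genes, 32 transcripts were tested, and 0 of them passed an adjusted p of 0.05 in edgeR's test, as did 0 of 62900 transcripts in all (0%). The 4 of Pdia6 among them belong to the matched transcripts that hold 10.1% of its counts, so Pdia6 has no usable transcript value. At an unadjusted p under 0.05, 5 were higher in 2-DG explants, against 1.17% of all transcripts, and 0 were lower, against 2.28%. These were the protein-coding Pdia4-201 (log2 fold change 1.64 ± 0.21 SE), Pdia3-201 (1.11 ± 0.21), P4hb-201 (0.87 ± 0.22), Txndc5-201 (0.73 ± 0.30) and Erp29-203 (0.73 ± 0.31), with adjusted p-values of 0.266 for Pdia4-201, 0.943 for Pdia3-201 and 0.9996 for the others. The groups did not overlap in 4 of these 5, all but Txndc5-201, against 0.898% of all transcripts that were so in this direction and 0.968% in the other. Txndc5-201 and Erp29-203 held 32.4% and 12.9% of the counts of their genes. The most abundant transcripts of these genes, Txndc5-203 (log2 fold change 0.06 ± 0.25 SE) and Erp29-201 (0.24 ± 0.29), had an unadjusted edgeR p of 0.827 and 0.42. How the reads were divided between transcripts adds an error that the counts do not carry.

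In 9 genes, the share of the most abundant transcript was compared with an exact two-sided permutation test, and 0 of 9 passed an adjusted p of 0.05. A shift in 1 or 2 genes could not pass, since 1 gene at the smallest exact p of 0.0159 would have an adjusted p of 0.143, and at least 3 genes at that value were needed. The share of Pdia5-201 came nearest, with 59.2% ± 5.14 (SD) in control and 70.8% ± 9.84 (SD) in 2-DG explants (exact p = 0.0635, adjusted p = 0.571). Its per-library values were 67.9%, 59.1%, 54.6%, 56.7% and 57.7% in control and 75.6%, 65.4%, 82.1% and 60.3% in 2-DG libraries, so the groups overlapped. The rest of Pdia5 was mostly Pdia5-204, a processed transcript without a coding sequence in the annotation, at 34.0% of the counts on average. Of the 43 matched transcripts, 1 had shares whose groups did not overlap, near the 1.14% of all transcripts of tested genes with more than 1 transcript. It is Txndc11-203, named after its values were seen. It held 3.59% to 6.34% of the counts of Txndc11 in control and 2.05% to 3.18% in 2-DG libraries, on 20 to 72 counts per library, and this share was not tested. In Ero1b the protein-coding transcripts together held 97.5% ± 2.12 (SD) in control and 91.1% ± 5.07 (SD) in 2-DG explants (exact permutation p = 0.0476, adjusted p = 0.286 over 9 genes).

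Other genes of disulfide formation were read beside the 10. Of 25 such genes in the ER, 22 were tested, 19 of them with a higher mean in 2-DG explants, 5 of them at an unadjusted p under 0.05 and 0 past the adjusted threshold, with a median log2 fold change of 0.27. The smallest p-values were those of Creld2, a PDI-like gene of the UPR (30.5 ± 6.06 CPM in control, 60.2 ± 14.999 CPM in 2-DG explants, SD; log2 fold change 0.98 ± 0.23 SE; edgeR adjusted p = 0.514), Prdx4, a peroxiredoxin that feeds oxidizing power to PDIs (9.12 ± 1.19 and 16.3 ± 1.09 CPM; 0.84 ± 0.22; adjusted p = 0.524), and the sulfhydryl oxidase Qsox1 (37.2 ± 12.4 and 68.1 ± 21.4 CPM; 0.87 ± 0.29; adjusted p = 0.586). Groups did not overlap for Creld2 and Prdx4 and overlapped for Qsox1. The thioredoxin-domain genes Txndc12 (log2 fold change 0.19 ± 0.27 SE) and Txndc16 (0.38 ± 0.34) had groups that overlapped.

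Of a list of 15 other partners and shared subunits of PDIs, apart from the chaperone list, 7 had a higher and 8 a lower mean, with a median log2 fold change of -0.05, and 1 was higher and 1 lower at an unadjusted p under 0.05, against 2.42% and 4.83% of all genes. The lower gene was Mttp, which encodes the large subunit of the microsomal triglyceride transfer protein and pairs with the product of P4hb. Mttp stood at 26.4 ± 4.71 CPM (SD) in control and 11.9 ± 1.75 CPM (SD) in 2-DG explants, with every 2-DG library (10.3 to 14.4 CPM) under every control library (19.4 to 32.1 CPM). Its log2 fold change was -1.15 ± 0.23 (SE; edgeR adjusted p = 0.494), opposite in sign to that of P4hb. The higher gene was Sumf1, which encodes the sulfatase-activating enzyme of the ER (14.4 ± 4.18 and 22.5 ± 4.11 CPM; log2 fold change 0.64 ± 0.27 SE; adjusted p = 0.665), and its groups overlapped. Those of the lysyl hydroxylase gene Plod1 overlapped as well (0.58 ± 0.31; adjusted p = 0.737).

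Pdia4 works beside the chaperones of the ER lumen. Of 20 chaperone genes, 18 had a higher mean in 2-DG explants, 10 were higher at an unadjusted p under 0.05, the groups did not overlap in 10 (against 2.42% and 1.52% of all genes tested), and the median log2 fold change was 0.60. The smallest p-values were those of Hyou1, an exchange factor of BiP (111 ± 12.4 and 251 ± 33.0 CPM, SD; log2 fold change 1.18 ± 0.19 SE; edgeR adjusted p = 0.30), Sdf2l1 (4.39 ± 1.31 and 25.6 ± 13.5 CPM; 2.54 ± 0.44; adjusted p = 0.38) and Manf, a cysteine-rich secreted factor (45.6 ± 9.81 and 115 ± 25.4 CPM; 1.34 ± 0.23; adjusted p = 0.38). Of 18 glycoprotein quality control genes, 17 had a higher mean and 8 were higher at that level (median 0.49), led by the oligosaccharyltransferase genes Ostc (0.79 ± 0.17), Ddost (0.81 ± 0.19) and Rpn2 (0.58 ± 0.19). Of 19 import and translocon genes, 18 and 8 were so (median 0.40), led by Sec61a1 (0.68 ± 0.18), Tram1 (0.54 ± 0.17) and Sec61b (0.87 ± 0.28). Of 16 genes of ER-associated degradation, 15 and 5 were so (median 0.31), led by Os9 (0.63 ± 0.18), Sel1l (0.74 ± 0.28) and Derl3 (1.72 ± 0.73). The groups did not overlap in 1 of these 16, Os9, against 1.52% of all genes tested. Derl3 had few counts, with 0.422 to 1.30 CPM in control and 4.16, 6.41, 0.889 and 0.543 CPM in 2-DG replicates 1 to 4.

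The sensors and transcription factors of the UPR had a higher mean in 13 of 15 genes, but 0 of them were higher at an unadjusted p under 0.05, with a median log2 fold change of 0.19. Xbp1, which encodes the factor that acts on the UPR element, was measured at 103 ± 16.7 CPM (SD) in control and 136 ± 10.8 CPM (SD) in 2-DG explants (log2 fold change 0.40 ± 0.19 SE; edgeR adjusted p = 0.698), and its groups did not overlap. Mbtps1 (0.33 ± 0.21) and Creb3 (0.28 ± 0.18) had groups that overlapped. Of 19 thiol redox genes of the cytosol and mitochondria, 15 had a higher mean and 3 were higher at an unadjusted p under 0.05 (median 0.23), namely Prdx1 (0.83 ± 0.35), Gclm (1.62 ± 0.69) and Nxn (0.47 ± 0.20). The groups of Prdx1 and Gclm overlapped, and both genes were highest in 2-DG replicate 4, at 753 and 747 CPM. In the other 2-DG libraries Gclm lay at 69.4 to 116 CPM, within the control range of 50.1 to 118 CPM. Prdx1 lay at 220 to 348 CPM there, against 166 to 267 CPM in control. All of these lists were chosen with earlier results of these data known, and their counts stand beside 2.42% of all genes.

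**Figure D5:**
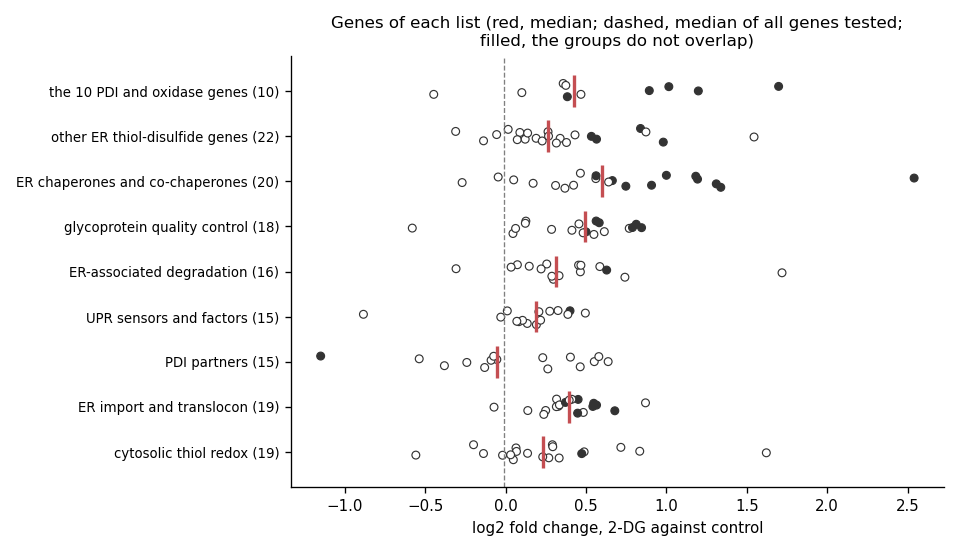
Log2 fold change of 2-DG against control (horizontal axis) for every tested gene of each list, with the number of genes in brackets, red bars at the medians and a dashed line at the median of all genes tested. Filled points are genes whose groups do not overlap; the medians run from -0.05 for the partners of PDIs to 0.60 for the ER chaperones.

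By profile over the 9 libraries, measured as the root mean square distance between centred log2 CPM, the protein-coding genes nearest to Pdia4 were Calr (distance 0.27), Hsp90b1 (0.28), Hyou1 (0.29), Gpt2 (0.29) and Manf (0.32). Of these, 4 are ER chaperones of the list above and Gpt2 encodes a mitochondrial alanine transaminase. The genes nearest to the mean of the 10 were Gmds (0.09), Med28 (0.10), Ssr2 (0.11), Tram1 (0.12) and Cers2 (0.12). From that mean, Txndc5 (0.20), P4hb (0.20), Erp44 (0.22) and Txndc11 (0.22) were the least distant of the 10 and Pdia5 (1.2) the most. The genes nearest to Pdia5, named after their values were seen, included the rod channel gene Cnga1 (0.29) and Ccdc51 (0.23), and none of them was among those nearest to another of the 10.

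Markers of the cell types in a retina overlapped between the groups in all 11 lists examined. Summed rod markers ran from 1782 to 17229 CPM in control and from 3218 to 7592 CPM in 2-DG libraries, and 6 of 6 had a lower mean in 2-DG explants, 0 of them at an unadjusted p under 0.05. That direction rests on control replicate 2, since without it 6 of 6 had a higher mean in 2-DG explants, the mean sum being 4486 CPM there against 3755 CPM in the other 4 controls. Of the bipolar cell markers, 6 of 6 had a higher mean (median log2 fold change 0.67), 0 of them at that level, with sums of 160 to 1848 CPM in control and 313 to 2885 CPM in 2-DG libraries. Of the cone markers, 5 of 6 had a higher mean (median 1.07) and 1 was higher at that level, against 2.42% of all genes, with sums of 54.2 to 538 CPM in control and 69.9 to 754 CPM in 2-DG libraries, the highest in replicate 3. The higher mean sum rests on that library, since the other 2-DG libraries (69.9 to 94.9 CPM) lay under the control mean of 159 CPM. Without control replicate 2 (538 CPM) that control mean was 63.9 CPM. Of the 4 RPE markers tested, 2 were higher at that level, against 2.42% of all genes (median 2.34), with sums of 4.2 to 11.5 CPM in control and 1.53 to 149 CPM in 2-DG libraries, the highest again in replicate 3. Their sums in 2-DG replicates 1 and 2 (1.53 and 2.80 CPM) lay below every control, and those in replicates 3 and 4 (149 and 24.1 CPM) above every control. Rpe65 and Mlana, defining markers of the RPE, were at 0 in some libraries. Summed Müller glia and astrocyte markers ran from 1423 to 5975 CPM in control and from 570 to 2522 CPM in 2-DG libraries, and 3 of 6 were lower at that level, against 4.83% of all genes, while Aqp4 and Gfap had a higher mean in 2-DG explants. For Aqp4 this rests on 2-DG replicate 3 (67.3 CPM), since the other 2-DG libraries (4.41 to 8.59 CPM) lay below every control (11.3 to 27.6 CPM). Summed markers of secretory fibroblasts, a cell type rich in PDIs, ran from 10.9 to 30.1 CPM in control and in 2-DG libraries from 16.3 to 95.03 CPM, with the highest sum in 2-DG replicate 3, and 2 of 6 were higher at an unadjusted p under 0.05, against 2.42% of all genes. Their part in the values of the 10 genes was not tested.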

How the data were processed

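Total RNA of retinal explants was read by stranded RNA-seq (4 ng of RNA, 13 PCR cycles, paired reads of 101 bases, all libraries in batch 1 per the labels). The authors deposited estimated counts per gene (55487) and per transcript (142699), not scaled between libraries. Kallisto and GRCm38 are named in the submitters' processing notes, without version or role. Library totals of the 2 tables were equal, although single genes differed from the sum of their transcripts; how they relate is not stated. A deposited signal table of 12568 genes, CPM on a scaled library size made by the authors, was used only as an alternative. The authors' comparison table (log2 fold changes, mean log2 CPM, F, p-values and adjusted p-values) was not used.

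Estimated counts were rounded, which moved a library total by at most 0.00377%. Genes kept by filterByExpr were scaled by TMM and tested in edgeR 4.0.16 (R 4.3.3; glmQLFit with legacy=TRUE, robust=FALSE; glmQLFTest; group as the only term), with Benjamini-Hochberg adjustment over 21049 genes, and likewise for 62900 transcripts. The standard error is the absolute log2 fold change over the square root of F. Ratios used a pseudocount of 0.5 counts and log2 CPM a prior count of 2; permutation tests were exact and two-sided (scipy 1.17.1). Limma 3.58.1 and DESeq2 1.42.0 gave alternatives. The scripts were tested on simulated data. Totals of 11317734 to 51802249 counts set the precision, and limits of 3 counts cover counting error only. Symbols were matched by name, Ero1b and Ero1a by their RefSeq synonyms Ero1lb and Ero1l; coordinates and exons are from GENCODE M21, promoters from RefSeq. Groups were taken from the sample titles, because 1 protocol text, which mentions 2-DG, is shared by all samples. The members and lists were chosen with earlier results of these data known. Named were all 10 genes, the 3 genes of each list with the smallest p-value, paralogs, and the 5 genes nearest in profile to Pdia4 and to the mean. A marker gene of the rod list is not reported here and was left out of the sums.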

Additional observations from a re-analysis of the deposited data

Results flagged for a closer look

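In 38 groups of values of the 10 genes, 6 held a library far from the others of its group by the ratio of its gap to the range; chance gives about 1 in 20 groups. That rate does not apply to the 4 groups of transcript shares among them, whose values are tied at or near 100%. The CPM of Pdia5 was 172 in 2-DG replicate 4, against 23.4 to 37.7 in the other 2-DG libraries. The CPM of Txndc5 was 77.5 in 2-DG replicate 2, against 68.1 to 69.0. The share of Pdia4-201 in the transcript counts of Pdia4 was 99.6% in control replicate 1, against 100% in the other controls, and 100% in 2-DG replicate 1, against 99.9% in the other 2-DG libraries. The share of P4hb-201 was 97.0% in control replicate 2, where the others lay at or just under 100%, and 99.2% in 2-DG replicate 4, against 100% in the others.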

How the results depend on the processing

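Across 20 alternative fits with a p-value, the log2 fold changes of Pdia4, Pdia3, Pdia6 and P4hb kept their direction and an unadjusted p under 0.05, within 1.56 to 1.84, 1.07 to 1.29, 0.90 to 1.10 and 0.74 to 0.94. Ero1b reversed to -5.2e-05 without control replicate 2 and to -0.0157 without control replicate 2 and 2-DG replicate 4. Members past an adjusted p of 0.05 numbered 4 with DESeq2, 5 with limma-voom, 3 without those 2 libraries, and 0 to 1 without single libraries (1 without control replicate 2 and 1 without 2-DG replicate 4, Pdia4 each time). Genes past it numbered 284 with DESeq2, 1222 with limma-voom, 1 with legacy=FALSE, 177 without those 2 libraries and 0 to 16 without single libraries. Genes higher at an unadjusted p under 0.05 numbered 293 with library size only, 321 with upper-quartile scaling, 2240 with limma-voom, 1015 without those 2 libraries and 269 to 715 without single libraries. Transcripts of the 10 genes higher at that level numbered 3 to 5 without single libraries. Pairs of genes past an adjusted p of 0.05 numbered 12 with the exact p from absolute differences and 0 without single libraries, where fewer samples also raise the smallest p. Upper-quartile scaling moved the median log2 fold change of all genes to -0.09.

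With the replicate block, 0 genes and 0 of the 10 passed an adjusted p of 0.05 and 4 of the 10 an unadjusted p of 0.05 (Pdia4 1.67 ± 0.25 SE, edgeR adjusted p = 0.46). Same-numbered libraries correlated in their deviations at 0.45, -0.15, 0.10 and 0.21, so the numbers were not taken as pairs, and 1 of 4 2-DG libraries correlated best with its own number. The choice to leave out both libraries together, the deposited CPM, the rod sums without control replicate 2 and the absolute differences were added after seeing the data. The 10 genes had at least 207 counts in every library.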

Other observations

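The 10 genes did not all deviate in 1 direction within a library, as in 2 libraries chosen after their values were seen. In control replicate 2, Pdia3 lay 0.64 and Ero1b 0.46 below their control means on the log2 scale (deviations of -0.64 and -0.46), while Pdia5 lay 1.23, Erp29 0.56 and Txndc11 0.39 above them. In 2-DG replicate 4, Pdia4, Pdia3 and Pdia6 deviated by -0.49, -0.30 and -0.26 from their 2-DG means, while P4hb and Erp44 deviated by 0.27 and 0.54 and Pdia5 by 1.95. Control replicate 2 held 17229 CPM of rod markers and 2-DG replicate 4 held 7592 CPM, the highest sums of their groups, and the part of this in the deviations was not tested.

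Nearest in profile to Pdia6 and P4hb were genes named here after their values were seen. For Pdia6 they were Afdn (distance 0.15), Hyou1 (0.15), Hsp90b1 (0.16), Ostc (0.18) and Dnajc3 (0.18), of which Hyou1, Hsp90b1 and Dnajc3 are ER chaperones and co-chaperones. For P4hb they were Prdx4 (0.12), Sec61a1 (0.12), Ddost (0.14), Nans (0.14) and Dap (0.17), where Prdx4 is an ER peroxidase and Sec61a1 the channel of the translocon. The genes nearest to Ero1b (Bnip2, Oat, Exosc9, Abraxas2 and Dhx8) held no gene of the ER lists.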
